A study of Mus musculus with 7 samples.

Results

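The coagulation and fibrinolysis genes described here were 9 genes chosen by name: F3, Tfpi, Thbd, Procr, Plat, Plau, Plaur, F2r and F2rl1. They are 9 of the 57010 gene rows in the count table, and each symbol matched 1 row. All 9 passed the filter on low counts, which left 17039 genes to test. RNA was sequenced from mature white adipocytes freed with collagenase from the perigonadal fat of male mice aged 20 weeks that were fed Teklad LM-485 chow. The 4 Adipoq-F2-KO libraries came from mice with floxed FFA2 alleles and the Adiponectin-Cre transgene, and the 3 FFA2 fl/fl libraries from littermate floxed controls that were co-housed with them. Both genotypes therefore carried the floxed alleles, and Cre was driven by the adiponectin promoter, which is active in adipocytes. The labels do not say whether a library was made from 1 mouse or from pooled mice, and p-values measure the spread between these libraries.

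Blood clotting starts when tissue factor, the product of F3, meets factor VIIa, and leads to thrombin, which cuts fibrinogen to fibrin. TFPI blocks the tissue factor complex. Thrombomodulin (Thbd) on the cell surface turns thrombin toward protein C, and the endothelial protein C receptor (Procr) presents protein C to it. Fibrin is dissolved by plasmin, which the tissue-type and urokinase-type activators (Plat and Plau) make by cutting plasminogen, and urokinase is held at the cell surface by its receptor (Plaur). Thrombin and related proteases also signal to cells through the protease-activated receptors PAR1 (F2r) and PAR2 (F2rl1). Fat contains adipocytes, vessels, progenitors and macrophages, and several of these genes are known best from endothelium or from macrophages.

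The libraries held 30478997 to 39992605 counts. Low counts were mostly even, 85.5% to 88.8% of them, the pattern left when each mate adds its own count, so a gene at 0 may still reach 0.150 to 0.197 CPM (6 counts, for counting error only). The targeted gene, Ffar2, had 1094 to 1404 counts in the controls and 38 to 76 in Adipoq-F2-KO. All 10 markers of a list for adipocytes were detected, with a summed level of 51527 to 57081 normalized CPM (CPM after TMM scaling of library sizes) in the controls and 40531 to 49891 in Adipoq-F2-KO. Adipoq-F2-KO library 4 was the highest of all libraries for 8 of the 9 genes and in the summed markers of vessels. The log2 fold change of each of the 9 genes is therefore given with and without this library.

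Of the 9 genes, 2 were called higher in Adipoq-F2-KO and none lower at an adjusted p under 0.05 (edgeR's quasi-likelihood test, Benjamini-Hochberg over 17039 genes). These were Procr and Plau, which both rose about as much, with folds of 2.27 and 2.25. Over all tested genes, 0.798% were called higher. At an unadjusted p under 0.05, 6 of the 9 were higher and 0 lower, against 10.5% of all tested genes that were higher by that rule. The same 6, Thbd, Procr, Plat, Plau, Plaur and F2r, had every Adipoq-F2-KO library above every control library, which was so for 8.86% of all tested genes. F3, Tfpi and F2rl1 overlapped between the genotypes. In bulk RNA a difference in the number of cells of a type and one in RNA per cell cannot be told apart. The median log2 fold change of the 9 was 0.89, beside 0.00 over all tested genes. DESeq2 called these 6 higher (4.67% of the genes it tested were called higher), and so did edgeR with every gene of at least 1 count tested (3.76% called higher).

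**Figure D1:**
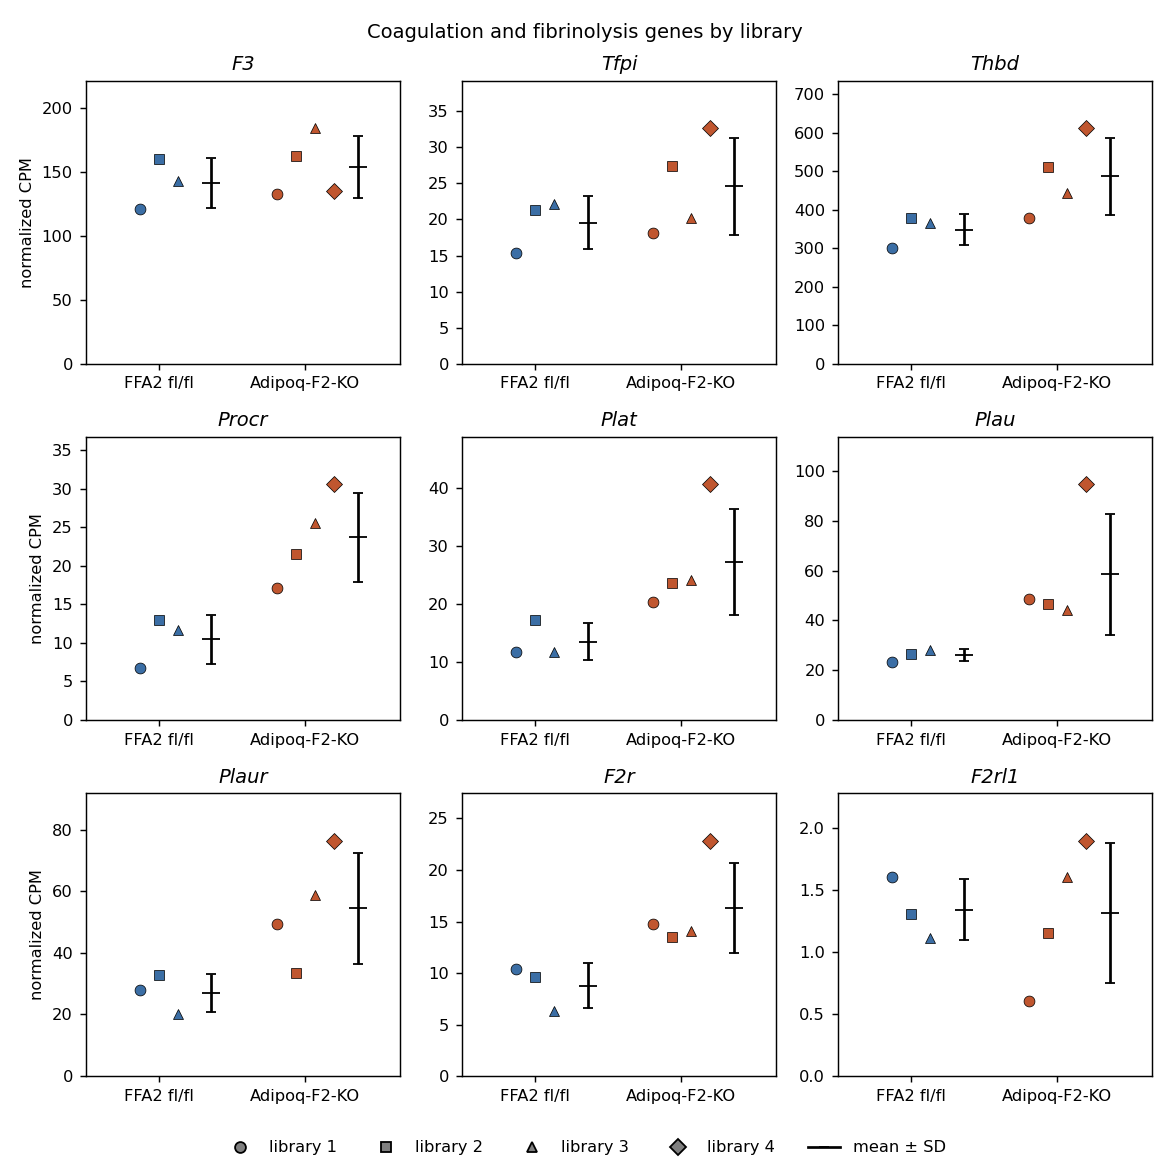
Normalized CPM (vertical axes from 0) of the 9 genes in the 3 FFA2 fl/fl (blue) and 4 Adipoq-F2-KO libraries (orange); marker shapes are library numbers within a genotype and bars are mean ± SD. The panels of Thbd, Procr, Plat, Plau, Plaur and F2r show no overlap, and library 4 is the highest in 8 of the 9.

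The 250 bases upstream of a RefSeq transcript start are given for 3 of the 6 genes without overlap (Procr, Plaur and F2r) and for F3, which overlapped, because all 4 windows hold the same AP-1 motif. AP-1 is a dimer of Fos and Jun family proteins. RefSeq windows (GRCm38.p6) were matched for 5 of the 9 genes, these 4 and Tfpi; none was matched for Thbd, Plat, Plau and F2rl1. Sequences run 5′ to 3′ on the gene's strand, and capitals mark each match to TGANTCA, searched on both strands.
Procr, plus strand, chr2:155750967-155751216: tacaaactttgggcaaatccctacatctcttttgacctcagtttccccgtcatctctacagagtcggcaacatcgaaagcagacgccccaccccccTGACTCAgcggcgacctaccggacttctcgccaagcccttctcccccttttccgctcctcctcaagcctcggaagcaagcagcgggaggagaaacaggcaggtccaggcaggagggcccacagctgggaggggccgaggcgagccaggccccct
Plaur, plus strand, chr7:24462233-24462482: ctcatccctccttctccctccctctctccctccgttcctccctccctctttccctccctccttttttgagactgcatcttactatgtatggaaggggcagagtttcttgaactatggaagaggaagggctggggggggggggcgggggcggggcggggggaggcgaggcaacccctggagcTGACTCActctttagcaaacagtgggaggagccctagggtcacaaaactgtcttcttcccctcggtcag
F2r, minus strand, chr13:95618467-95618716: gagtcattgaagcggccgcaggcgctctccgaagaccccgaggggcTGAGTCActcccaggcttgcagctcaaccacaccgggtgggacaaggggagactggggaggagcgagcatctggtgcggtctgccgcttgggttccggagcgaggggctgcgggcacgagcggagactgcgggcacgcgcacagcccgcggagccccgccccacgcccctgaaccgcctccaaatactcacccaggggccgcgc
F3, plus strand, chr3:121723287-121723536: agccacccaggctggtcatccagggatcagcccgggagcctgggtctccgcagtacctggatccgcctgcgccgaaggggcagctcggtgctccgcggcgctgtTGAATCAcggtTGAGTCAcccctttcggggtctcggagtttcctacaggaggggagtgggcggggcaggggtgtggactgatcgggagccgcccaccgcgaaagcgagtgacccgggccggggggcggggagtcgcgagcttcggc
The motif began 154 bases before that transcript start in Procr, 69 in Plaur and 204 in F2r. The RefSeq gene span, which takes in predicted transcripts, begins further upstream for 2 of these, at 24460937 for Plaur and 155751125 for Procr, so the Plaur window lies wholly and the Procr window partly inside the span. In F3 it was present as a pair, at 146 and 135 bases. Neither of the windows of Tfpi held it. Of 32536 distinct upstream windows of the same length in the RefSeq table, 6.73% held the motif. The GC box GGGCGG, in 33% of all windows, was present in F3, Plaur and F2r and absent from Procr, and TATAAA, in 12.3%, was present in none of the printed windows. A match is a run of letters only, and any part of the motif in the values of these genes was not tested.

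Tissue factor and its inhibitor gave no call. F3 (ENSMUSG00000028128) lies on chromosome 3 from 121517186 to 121528697 in the coordinates of the deposited table, which are not those of GRCm38. It had 121, 160 and 143 normalized CPM in FFA2 fl/fl libraries 1 to 3 and 133, 162, 184 and 135 in Adipoq-F2-KO libraries 1 to 4. The ranges overlapped, with Adipoq-F2-KO libraries 2 and 3 above the controls and control library 1 below every Adipoq-F2-KO library. Adipoq-F2-KO library 4, the highest in the 8 other genes, was the second lowest of its genotype. The log2 fold change was 0.12 (standard error, SE, 0.13, 95% interval -0.17 to 0.42, edgeR adjusted p = 0.681), and 0.18 without library 4. Tfpi (ENSMUSG00000027082, chromosome 2 from 84263199 to 84307119) had 15.3, 21.3 and 22.1 normalized CPM in the controls and 18.1, 27.4, 20.2 and 32.7 in Adipoq-F2-KO. Libraries 2 and 4 of Adipoq-F2-KO were above the controls and libraries 1 and 3 within their range. Its log2 fold change was 0.33 (SE 0.21, 95% interval -0.12 to 0.78, edgeR adjusted p = 0.435), and 0.16 without library 4. Both intervals include 0.

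The protein C pathway pair lay above the controls in each Adipoq-F2-KO library, and Procr was called. Procr (ENSMUSG00000027611, chromosome 2 from 155593037 to 155597391) had 6.78, 12.9 and 11.6 normalized CPM in the controls and 17.1, 21.5, 25.6 and 30.6 in Adipoq-F2-KO. Control library 1 was the lowest by a wide margin, and even the lowest Adipoq-F2-KO library exceeded the highest control. Its mean rose from 10.4 ± 3.23 (SD, n = 3) to 23.7 ± 5.74 (SD, n = 4), by 1.18 on the log2 scale (SE 0.24, edgeR adjusted p = 0.0475). Without control library 1 the log2 fold change was 0.95 (edgeR adjusted p = 0.207), and without Adipoq-F2-KO library 4 it was 1.04 (edgeR adjusted p = 0.0607). Thbd (ENSMUSG00000074743, chromosome 2 from 148246386 to 148250108) had 302, 378 and 365 normalized CPM in the controls and 379, 512, 444 and 612 in Adipoq-F2-KO. The genotypes were barely apart, since Adipoq-F2-KO library 1 lay at 378.554 and control library 2 at 378.197. The log2 fold change of Thbd was 0.48 (SE 0.15, 95% interval 0.15 to 0.82), which DESeq2 called (adjusted p = 0.0224) and edgeR did not (adjusted p = 0.141). Without library 4 it was 0.35 (edgeR adjusted p = 0.211).

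**Figure D2:**
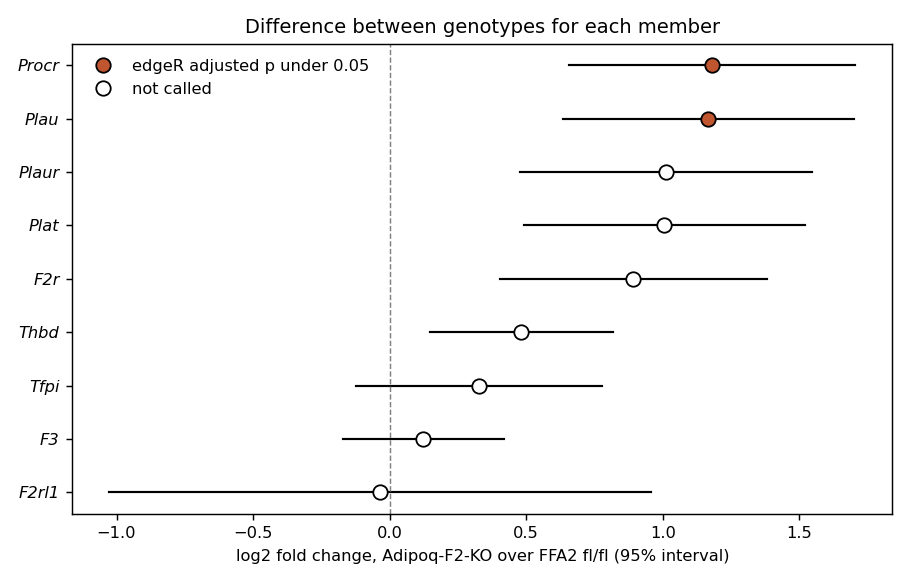
Log2 fold change (horizontal axis) of Adipoq-F2-KO over FFA2 fl/fl for each gene, with its 95% interval from edgeR as a line; filled points were called at an adjusted p under 0.05. Procr and Plau were called, and the intervals of Tfpi, F3 and F2rl1 include 0.

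Both plasminogen activators lay above the controls in each Adipoq-F2-KO library, and Plau was called. Plau (ENSMUSG00000021822, chromosome 14 from 20886728 to 20893453) had 23.4, 26.5 and 28.2 normalized CPM in the controls, the tightest group of the 9 genes (coefficient of variation 9.32%). In Adipoq-F2-KO it had 48.5, 46.6, 44.1 and 94.6. Adipoq-F2-KO libraries 1 to 3 lay close together, well above the controls, and library 4 was 2.04 times their mean. The log2 fold change was 1.17 (SE 0.24, edgeR adjusted p = 0.04995), barely under the threshold. The edgeR adjusted p was 0.0504 without the mitochondrial genes and the most abundant row. Without library 4 the difference was smaller and its p lower, with a log2 fold change of 0.84 (edgeR adjusted p = 0.00972). Plat (ENSMUSG00000031538, chromosome 8 from 23247743 to 23272860) had 11.7, 17.2 and 11.7 normalized CPM in the controls and 20.4, 23.5, 24.2 and 40.6 in Adipoq-F2-KO. It showed the same shape as Plau, with libraries 1 to 3 close together and library 4 at 1.79 times their mean. The log2 fold change of Plat was 1.01 (SE 0.23, adjusted p = 0.0654 by edgeR, 0.00104 by DESeq2), and 0.75 without library 4 (edgeR adjusted p = 0.0596).

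The urokinase receptor Plaur (ENSMUSG00000046223, chromosome 7 from 24161909 to 24175393) had 28.1, 32.7 and 20.2 normalized CPM in the controls and 49.2, 33.6, 58.7 and 76.5 in Adipoq-F2-KO. Adipoq-F2-KO library 2 was barely above control library 2, whereas the other 3 libraries were well above it. The log2 fold change was 1.01 (SE 0.24, adjusted p = 0.0721 by edgeR, 6.19e-04 by DESeq2), and it was 0.80 without library 4. Plaur lies 6.34 Mb from Ffar2, the deleted gene, on the same chromosome. Both genotypes are floxed at Ffar2, and any part of this position in the values of Plaur was not tested.

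Of the protease-activated receptors, F2r did not overlap between the genotypes and F2rl1 did. Neither was called by edgeR, and DESeq2 called F2r. F2r (ENSMUSG00000048376, chromosome 13 from 95738311 to 95754995) had 10.4, 9.58 and 6.33 normalized CPM in the controls and 14.8, 13.5, 14.1 and 22.9 in Adipoq-F2-KO. Libraries 1 to 3 of Adipoq-F2-KO fell within a narrow range above the controls and library 4 stood at 1.62 times their mean. The log2 fold change was 0.89 (SE 0.22, adjusted p = 0.0792 by edgeR, 0.00605 by DESeq2), and 0.69 without library 4. F2rl1 (ENSMUSG00000021678, chromosome 13 from 95648240 to 95661735) lies 76.6 kb from F2r and was the least abundant of the 9 genes, with 24 to 60 counts in a library. It had 1.60, 1.31 and 1.11 normalized CPM in the controls and 0.602, 1.15, 1.60 and 1.90 in Adipoq-F2-KO. The Adipoq-F2-KO libraries surrounded the controls on both sides, from the lowest value to the highest. Its log2 fold change was -0.03 (SE 0.45, edgeR adjusted p = 0.981), with a wide 95% interval of -1.03 to 0.96, and -0.26 without library 4.

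A permutation of the library labels has 35 outcomes here and cannot give a two-sided p under 0.0286. Exact permutation (two-sided) of mean normalized CPM gave p = 0.0286 for F2r and 0.0571 for each of Thbd, Procr, Plat, Plau and Plaur. For the genes with overlap the exact permutation test gave p = 0.486 (F3), 0.314 (Tfpi) and 1 (F2rl1). With each library left out in turn, Procr was called in 1 of the 7 fits (without Adipoq-F2-KO library 1) and Plau in 1 (without Adipoq-F2-KO library 4). Log2 fold changes in these fits ran from 0.95 to 1.37 for Procr and from 0.84 to 1.28 for Plau, and edgeR adjusted p values reached 0.207 and 0.244, both without FFA2 fl/fl library 1. With the replicate number as a block, 3 of the 9 genes were called higher, where 1.12% of all tested genes were called higher. The gene added was Plat (log2 fold change 0.77, edgeR adjusted p = 0.0428). No control library is numbered 4, so Adipoq-F2-KO library 4 was alone in its block and did not inform that genotype difference.

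To compare levels between genes, counts were divided by exon length and scaled to a fixed total per library (TPM). On this scale Thbd was the most abundant of the 9 in all 7 libraries, with 290 ± 28.0 TPM (SD, n = 3) in the controls and 374 ± 64.8 (SD, n = 4) in Adipoq-F2-KO. F3 followed in all 7 libraries, at 173 ± 19.02 and 175 ± 29.8 TPM. Next came Plau, at 34.1 ± 3.14 and 70.1 ± 25.2 TPM, and Plaur, at 31.9 ± 6.71 and 59.1 ± 16.7 TPM. The order of Plau and Plaur was not fixed, since Plau was the higher in 4 of 7 libraries. Procr was below both and above Tfpi in all 7 libraries, at 15.9 ± 4.58 and 33.2 ± 6.55 TPM. Tfpi, at 11.1 ± 1.97 and 12.9 ± 3.16 TPM, and F2r, at 8.17 ± 2.00 and 13.9 ± 3.04 TPM, also changed places, with Tfpi the higher in 2 of 3 control and 1 of 4 Adipoq-F2-KO libraries. Plat was just below F2r in all 7 libraries, by a ratio as small as 1.01, at 6.70 ± 1.32 and 12.4 ± 3.49 TPM. F2rl1 was last, at 1.52 ± 0.301 and 1.36 ± 0.534 TPM.

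**Figure D3:**
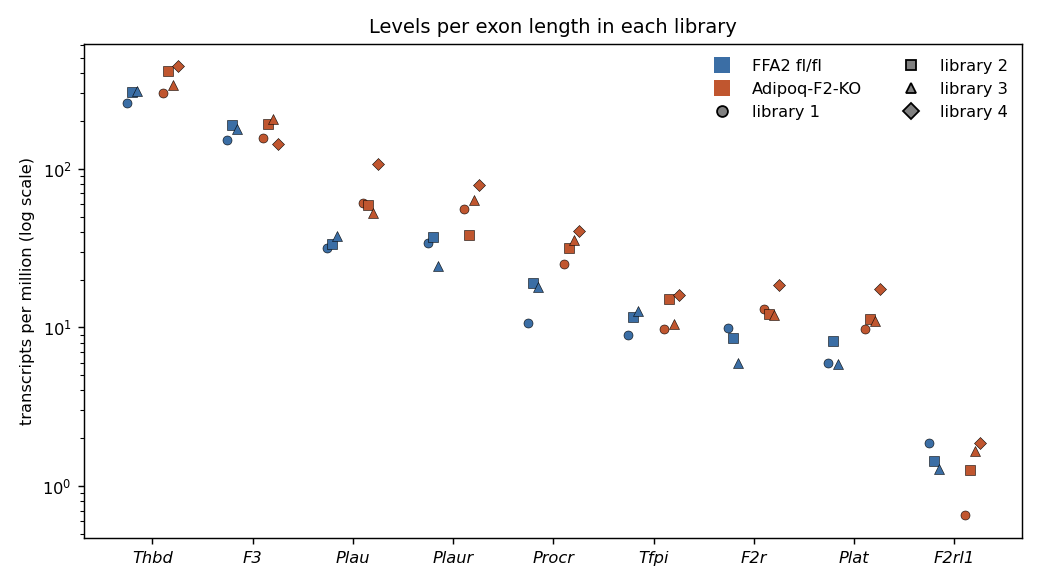
TPM (log axis) of the 9 genes in each library, ordered by their mean; blue is FFA2 fl/fl, orange is Adipoq-F2-KO and shapes are library numbers. Thbd and F3 lie above the other genes in every library, and F2rl1 below them.

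The libraries themselves ordered the genes in a recurring way. Adipoq-F2-KO library 4 was the highest of all 7 libraries for 8 of the 9 genes, and Adipoq-F2-KO library 3 for F3. FFA2 fl/fl library 1 was the lowest for 6 of the 9, F3, Tfpi, Thbd, Procr, Plat and Plau. Control library 3 was the lowest for Plaur and F2r, and Adipoq-F2-KO library 1 for F2rl1.

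Ratios of 2 genes within a library do not depend on how libraries are scaled, and 5 such ratios were compared. Each is a log2 ratio of counts per exon length, with 1 count added. Thbd over Procr was 4.596, 3.99 and 4.10 in the controls and 3.59, 3.70, 3.24 and 3.45 in Adipoq-F2-KO. Every Adipoq-F2-KO library was below every control library, so Procr made up a larger part of the pair. The mean ratio differed by -0.73 on the log2 scale (exact permutation test, two-sided p = 0.0286, adjusted p = 0.143 over the 5 ratios). F2r over F2rl1 was 2.40, 2.56 and 2.19 in the controls and 4.27, 3.24, 2.83 and 3.28 in Adipoq-F2-KO. The genotypes did not overlap there either, with a difference of 1.02 (exact permutation test, two-sided p = 0.0571, adjusted p = 0.143). Neither ratio passed the adjustment. With 35 outcomes the smallest p is 0.0286, and over 5 ratios 1 ratio alone at that p cannot pass. No conclusion is drawn from this failure. Without Adipoq-F2-KO library 4 the differences were -0.72 for Thbd over Procr and 1.06 for F2r over F2rl1. With each library left out in turn, that of Thbd over Procr ran from -0.85 to -0.55, the latter without control library 1. That of F2r over F2rl1 ran from 0.73 to 1.21. The 0.73 was without Adipoq-F2-KO library 1, which had 24 counts of F2rl1. The other 3 ratios overlapped. F3 over Tfpi differed by -0.19, with Adipoq-F2-KO libraries from 3.16 to 4.30 around controls from 3.80 to 4.09. Plau over Plat differed by 0.12, and Plaur over Plau by -0.12 (exact permutation test, adjusted p = 0.771 for each of the 3).

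**Figure D4:**
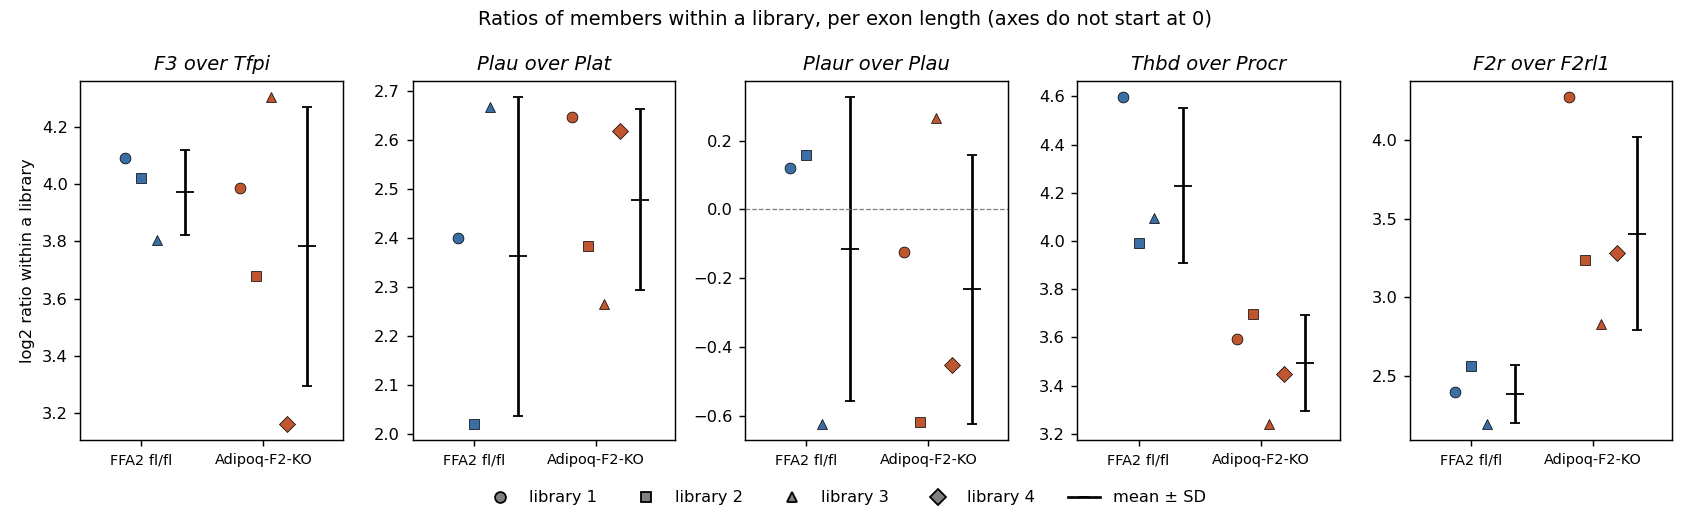
Log2 ratios of 2 genes within each library, per exon length (vertical axes differ and do not start at 0), with mean ± SD. Thbd over Procr is lower and F2r over F2rl1 higher in all 4 Adipoq-F2-KO libraries, and the other 3 ratios overlap.

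A wider list held 40 other genes of clotting and fibrinolysis. Of these 23 were tested, 17 higher and 6 lower, and 0 were called by edgeR, with a median log2 fold change of 0.24. At an unadjusted p under 0.05, 4 of the 23 were higher and 0 lower, where 10.5% of all tested genes were higher. The groups did not overlap for 3 of the 23, where 8.86% of all tested genes were higher without overlap: F13a1, Tfpi2 and Serpinf2, the last at under 1 CPM. DESeq2 called 2 of the list higher, F13a1 and Tfpi2, where it called 4.67% of all genes it tested higher. No result about the list is read from these small counts. F13a1, the transglutaminase subunit that crosslinks fibrin and a known macrophage transcript, had 18.99, 18.2 and 25.3 normalized CPM in the controls and 30.6, 25.3, 29.2 and 32.9 in Adipoq-F2-KO (log2 fold change 0.50, edgeR adjusted p = 0.108). Control library 3 at 25.278 and Adipoq-F2-KO library 2 at 25.303 all but touched.

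Among genes averaging at least 1 CPM, the largest difference was that of Tfpi2, a Kunitz-type protease inhibitor, with 1.74, 2.22 and 1.99 normalized CPM in the controls and 3.96, 2.34, 5.09 and 6.04 in Adipoq-F2-KO. Its log2 fold change was 1.13 (SE 0.33, edgeR adjusted p = 0.113), and library 2 was the one close to the controls, as it was for Plaur. F7, which encodes factor VII, and Vwf, which encodes von Willebrand factor, followed with log2 fold changes of 0.61 and 0.57 (edgeR adjusted p = 0.519 and 0.191), both with overlap. In the other direction the largest were -0.15 for F8, which encodes factor VIII, -0.14 for Serpine2, a thrombin inhibitor, and -0.11 for Ggcx, the vitamin K-dependent carboxylase, all with overlap. The 5 most abundant genes of the list per exon length were Thbs1, Anxa2, S100a10, Gas6 and Lrp1, with log2 fold changes from -0.08 to 0.18 and none called. Anxa2 and S100a10 together form a plasminogen receptor. In the list, 6 genes had 0 counts in all 7 libraries: F12, F13b, Fgb, Fgg, Proc and Hrg. The plasminogen gene Plg had counts in 1 library only, FFA2 fl/fl library 2, at 0.176 normalized CPM.

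Summed markers of several other cell types were also higher in Adipoq-F2-KO. All 12 tested markers of a list for endothelial cells had a positive log2 fold change (median 0.45, 0 called). Their summed level was 1534 to 2012 normalized CPM in the controls and 2050 to 3271 in Adipoq-F2-KO, with library 4 at the top, so the groups did not overlap. Taken singly, 4 of the 12 had every Adipoq-F2-KO library above every control library, where 8.86% of all tested genes did. The defining endothelial marker Cdh5, among these 4, was at 295 to 418 in the controls and 435 to 723 in Adipoq-F2-KO. For macrophages, 11 of 13 markers had a positive log2 fold change (median 0.61), and Mertk (-0.42) and Cd163 (-0.12) were lower. Of the 13, 2 were called higher, Cd68 and Lyz2, where 0.798% of all tested genes were called higher. The summed level was 439 to 495 against 567 to 654 normalized CPM. Mural cell markers summed to 585 to 700 in the controls and 731 to 1333 in Adipoq-F2-KO, again highest in library 4. Of these 8 markers 6 had a positive log2 fold change (median 0.33, 0 called), while Acta2 (-0.24) and Cnn1 (-0.46) were lower. Rgs5 alone gave 242 to 332 of that sum in the controls and 394 to 807 in Adipoq-F2-KO. Fibroblast progenitor markers summed to 878 to 1183 against 1281 to 1561, of which Col3a1 gave 390 to 613 and 633 to 782. There 10 of 11 were higher (median 0.41, 0 called) and Col1a1 lower (-0.05). None of the markers of these 4 lists was at 0 throughout. The 10 adipocyte markers were all lower by log2 fold change, with a median of -0.30 and 0 called.

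Mesothelial markers (4 of 7 tested with a positive log2 fold change) summed to 10.9 to 26.2 normalized CPM in the controls and 7.58 to 12.0 in Adipoq-F2-KO, and the defining marker Msln was under 1 CPM in every library. Of 9 platelet markers 4 were tested, all higher, at a summed level of 6.28 to 8.58 against 8.74 to 14.3. Neutrophil markers summed to at most 5.14 normalized CPM in any library. The 18 genes of a list for the response to tissue dissociation summed to 13620 to 16716 in the controls and 13933 to 15679 in Adipoq-F2-KO (median log2 fold change 0.11, 0 called). Erythroid markers summed to 97.8 to 224 normalized CPM in the controls and 210 to 373 in Adipoq-F2-KO. Germ cell transcripts summed to at most 2.66 outside Adipoq-F2-KO libraries 2 and 3, where they reached 118 and 11.4. The mitochondrial share of counts was 4.41% to 5.77% in the controls and 6.61% to 10.3% in Adipoq-F2-KO. The part of these cells and of this share in the differences of the 9 genes was not tested.

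**Figure D5:**
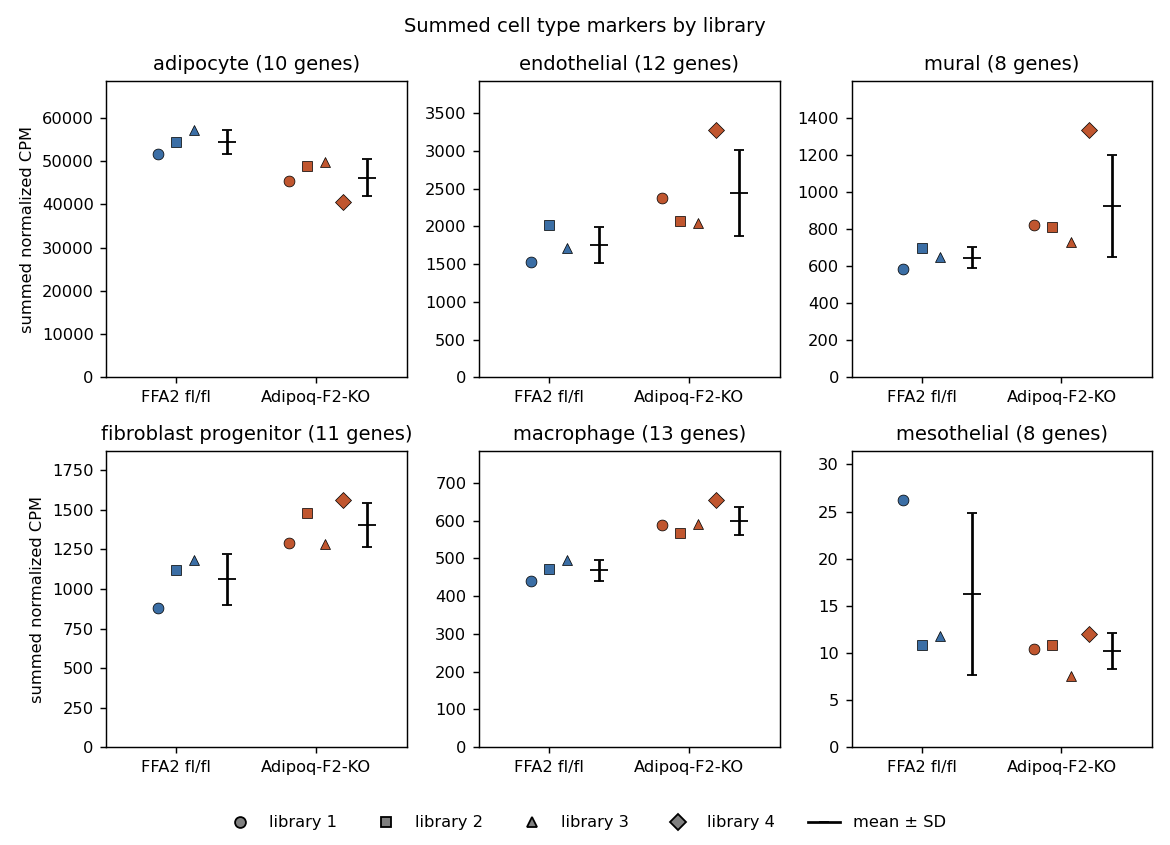
Summed normalized CPM (vertical axes from 0) of 6 marker lists in each library, with mean ± SD; blue is FFA2 fl/fl and orange Adipoq-F2-KO. Endothelial, mural, fibroblast progenitor and macrophage sums are higher and adipocyte sums lower in all 4 Adipoq-F2-KO libraries, with library 4 at the extreme of each, and mesothelial sums overlap.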

How the data were processed

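Reads from stranded, poly-A selected, paired-end libraries of 4 Adipoq-F2-KO and 3 control samples were trimmed with Trimmomatic, aligned with STAR and counted per gene with featureCounts by the authors. The deposited values are raw counts per gene and library without normalization. Versions, strand and overlap options are not given in the sources used here. Per the submitters' processing notes the build was GRCm38 (mm10), but the table's coordinates of all 9 genes differ from GRCm38, so they are printed only as deposited. No other gene row overlaps the 9 genes.

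Symbols were matched for 52029 of 57010 identifiers. Genes were filtered with filterByExpr, scaled by TMM and compared by genotype alone with glmQLFTest of edgeR 4.0.16 (R 4.3.3) at an adjusted p of 0.05. Standard errors were derived from the F statistic. DESeq2 1.42.0 and limma 3.58.1 (voom) were alternatives. The script was tested on simulated data. Members and lists were chosen with earlier results of these data known. Named were the 9 genes and, of 40 others, those called, the 5 most abundant, and the 3 largest changes each way at a mean of at least 1 CPM; genes named for a small count were chosen after their values were seen. Other genes of these pathways were not analysed here. Libraries of a genotype differed by more than counting noise, with chi-square 37.8 to 147 times its degrees of freedom. Same-numbered libraries did not deviate together (r from -0.02 to 0.02).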

Additional observations from a re-analysis of the deposited data

Results flagged for a closer look

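Adipoq-F2-KO library 4 lay far from the other 3 libraries of its genotype for 2 of the 9 genes. For Plau its gap to the nearest library was 0.913 of the genotype's range, and for F2r 0.871, both above Dixon's 95% critical value for 4 samples. Chance exceeds it in about 1 in 20 groups. Its value for Plau was 94.6 normalized CPM, and 44.1 to 48.5 in the other 3. For F2r it was 22.9, and 13.5 to 14.8 in the others. The same library had the largest endothelial, mural and macrophage marker sums, at 3271, 1333 and 654 normalized CPM, and the lowest adipocyte sum, at 40531. It also had the fewest counts, 30478997, and the largest mitochondrial share, 10.3%. Its share of counts in the most abundant row was 6.76%, against 0.619% to 3.75% in the other libraries. The part of these in the values of Plau and F2r was not tested.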

How the results depend on the processing

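The 173 genes called became 890 with DESeq2 and 1403 with every gene of at least 1 count tested, and 1 to 178 with a library left out in turn (1 without FFA2 fl/fl library 1, 5 without library 3 and 41 without library 2; in Adipoq-F2-KO, 11 with library 2 left out and 20 with library 3 left out). Of the 9 genes, 6 were called with DESeq2, 6 with at least 1 count, 1 without the mitochondrial genes and the most abundant row, and 0 to 1 with a library left out (Procr without Adipoq-F2-KO library 1, Plau without library 4). Without the mitochondrial genes and the most abundant row, 129 of 17106 tested genes were called higher. Of the wider list, 2 and 3 were called with DESeq2 and with at least 1 count, the third being Vwf. All of the 9 genes except F2rl1 kept a positive sign in all 14 alternatives, F3 and Tfpi among them. The sign of F2rl1, which was never called, turned when control library 1, or library 1 or 2 of Adipoq-F2-KO, was left out. With the replicate number as a block, which the data gave no sign of pairing for, 3 of the 9 genes and 224 in all were called. That block in effect leaves Adipoq-F2-KO library 4 out of the genotype difference.

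With a library left out, the ratio difference ranged from -0.362 to 0.0178 for F3 over Tfpi, from -0.0554 to 0.267 for Plau over Plat and from -0.371 to 0.0202 for Plaur over Plau, changing sign in each. The cause of these changes was not tested. Halved counts called 2 of the 9 higher, where 203 of 15272 tested genes were called higher. Depth was lowest for F2rl1, at 24 to 60 counts.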
